A study of Arabidopsis thaliana with 4 samples.

Results

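RNA polymerase I (Pol I) and RNA polymerase III (Pol III) were followed through 6 of their subunit genes in the Arabidopsis mutant ang3. The genes are NRPA1 (At3g57660), NRPA2 (At1g29940), NRPC1 (At5g60040), NRPC2 (At5g45140), RPAC43 (At1g60620) and RPAC42 (At1g60850, listed as ATRPAC42 in the gene table used). They were chosen by name, as the array probes that carry these locus numbers, and each gene had 1 probe, so that 6 of 37478 probes, or 6 of 25665 named loci, were taken. All 6 were well above background in both genotypes on 4 of 4 arrays and were tested, together with 20155 loci and unnamed probes in all.

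The study set ang3 mutant seedlings against Ler seedlings, the Landsberg erecta control, on 4 two-colour oligonucleotide arrays of 1 slide. Each array held RNA of both genotypes, with ang3 in Cy5 on replicates 1 and 3 and in Cy3 on replicates 2 and 4. Both genotypes were grown in vitro at 21 °C with 16 h of light after 3 days of vernalization, and no treatment was given beyond these shared conditions. The labels name the tissue shoot apex and give growth stage 1.02, whereas the series text gives stage 1.03 and lists all green parts of the seedling, with cotyledons and young leaves. The series text speaks of 2 dye swaps and of biological replicates but does not say which arrays shared an RNA extract. The p-values rest on the spread between arrays with ang3 in the same dye, drawn towards that of all features. This spread may be partly technical.

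As background, Pol I works in the nucleolus and makes the long precursor of the large ribosomal RNAs, while Pol III makes the smallest ribosomal RNA, the transfer RNAs and other short RNAs. NRPA1 and NRPA2 encode the largest and the second-largest subunit of Pol I, which together form its catalytic centre, and NRPC1 and NRPC2 encode the counterparts in Pol III. RPAC43 and RPAC42 encode forms of an assembly subunit that Pol I and Pol III share. RPL5B, the gene known to be mutated in ang3, encodes a large-subunit ribosomal protein that binds the smallest ribosomal RNA. In young leaves and at the shoot apex, demand for new ribosomes is high.

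Transcripts of 5 of the 6 subunit genes rose in ang3 and none fell. At an unadjusted p under 0.05 with limma, 5 of the 6 were higher and 0 lower, beside 23.3% of all features higher and 18.4% lower. Each ratio is the log2 of ang3 over Ler on 1 array, so that 0 stands for equal signal. Both Pol I genes, NRPA1 and NRPA2, rose by 0.33 and 0.34 on the log2 scale, or 1.26-fold each. The Pol III gene NRPC2 rose by 0.27, and the shared subunit genes RPAC42 and RPAC43 rose by 0.24 and 0.14. NRPC1, of the largest Pol III subunit, had a ratio of 0.08 that did not pass the test. Over all features tested, 26.2% were called at an adjusted p under 0.05 with limma, the rule used for every call here, 15.0% higher and 11.2% lower. The median of the 6 ratios was 0.26, beside 0.01 over all features. The number of arrays limits the precision, and leaving out 1 array changed the calls. The number of the 6 genes called higher was 4 without replicate 1, 0 without replicate 2, 0 without replicate 3 and 2 without replicate 4. Of all features, 8.37%, 5.77%, 1.86% and 8.11% were called higher in the same 4 fits. At an unadjusted p under 0.05 with limma, 4 of the 6 were higher without replicate 2, beside 19.1% of all features, and 4 without replicate 3, beside 15.3%. In bulk tissue, more cells that use a gene and more RNA of it per cell cannot be told apart.

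**Figure D1:**
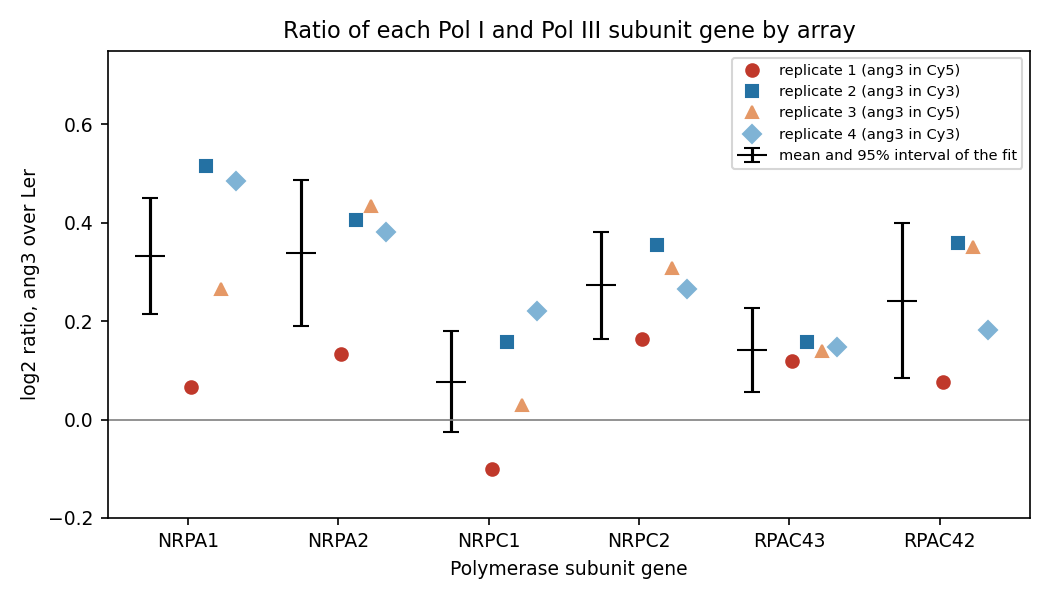
Log2 ratio of ang3 over Ler for each of the 6 subunit genes, by array (points, coloured by replicate and dye of ang3), with the mean and 95% interval of the fit (black). All 6 genes have their lowest ratio on replicate 1, and NRPC1 is the only one with a ratio below 0 there.

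The Pol I genes came first in the order of ratios. NRPA1 had normalized intensities, the brightness of its probe in each channel on a linear scale, of 1337, 1664, 1628 and 1729 in ang3 on replicates 1 to 4, against 1278, 1164, 1354 and 1236 in Ler. The ranges overlapped, because ang3 on replicate 1 lay below the highest Ler value, but ang3 was above Ler within each array. The NRPA1 ratios were 0.07, 0.52, 0.27 and 0.48 on replicates 1 to 4, which gives a mean of 0.33 (SE 0.046, SD 0.21, n = 4; adjusted p = 0.0125). The 95% interval of the mean ran from 0.22 to 0.45, and the ratio lay above that of 93.8% of all features. NRPA1 ratios averaged 0.50 where ang3 carried Cy3 and 0.17 where it carried Cy5, a difference of 0.33, the widest of the 6 genes.

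NRPA2 had normalized intensities of 1757, 2022, 2137 and 2092 in ang3, against 1601, 1526, 1581 and 1607 in Ler. Every ang3 value stood above every Ler value. Its ratios were 0.13, 0.41, 0.43 and 0.38, with a mean of 0.34 (SE 0.058, SD 0.14, n = 4; adjusted p = 0.0177). The Ler values of NRPA2 were close together (SD 36.9 around 1579), and the ang3 values were wider (SD 170 around 2002), with replicate 1 the lowest. Within arrays the 2 Pol I genes did not keep a fixed order, since NRPA1 minus NRPA2 was above 0 on 2 of 4 arrays, with a mean of -0.01 (SD 0.14).

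The Pol III genes differed more from each other. NRPC2 had normalized intensities of 2208, 2711, 2713 and 2664 in ang3, against 1970, 2120, 2190 and 2218 in Ler. The lowest ang3 value, on replicate 1, fell just below the highest Ler value. Its ratios were 0.16, 0.35, 0.31 and 0.26, with a mean of 0.27 (SE 0.043, SD 0.081, n = 4; adjusted p = 0.0149). The NRPC2 probe was the brightest against its local background, with signals of up to 49.3 times that background.

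NRPC1 had normalized intensities of 537, 604, 545 and 621 in ang3, against 576, 541, 534 and 533 in Ler. The groups overlapped, and ang3 was below Ler on replicate 1. Its ratios were -0.10, 0.16, 0.03 and 0.22, with a mean of 0.08 (SE 0.040, SD 0.14, n = 4; adjusted p = 0.213). The 95% interval from -0.03 to 0.18 holds 0 and also values up to a 1.13-fold higher level in ang3. NRPC1 ratios averaged 0.19 with ang3 in Cy3 and -0.04 with ang3 in Cy5. Within arrays NRPC1 minus NRPC2 was below 0 on 4 of 4 arrays, with a mean of -0.20 (SD 0.11, n = 4), and NRPA1 minus NRPC1 was above 0 on 4 of 4, with a mean of 0.26 (SD 0.079, n = 4). These differences between genes are given as a description and were not tested.

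**Figure D2:**
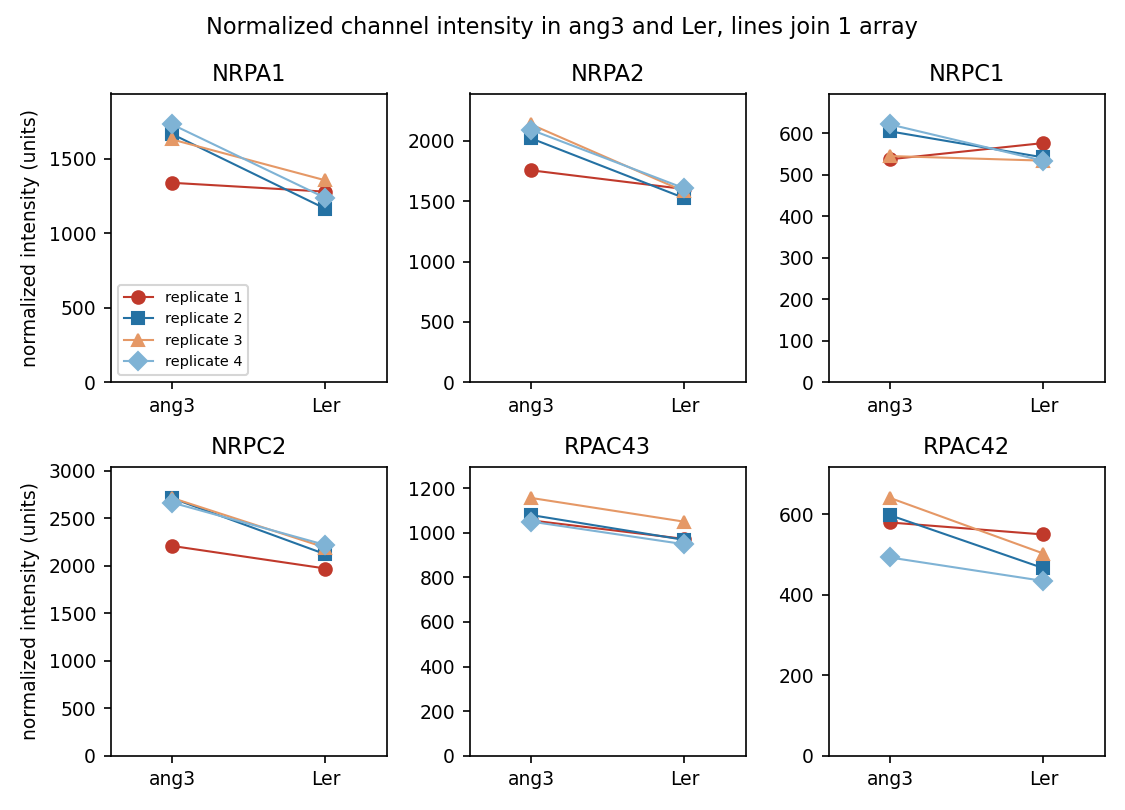
Normalized channel intensity (vertical axis, from 0) in ang3 and Ler for each subunit gene, with a line for each array. The NRPA2 and RPAC43 values of ang3 all lie above those of Ler, and only NRPC1 on replicate 1 is lower in ang3 than in Ler on the same array. Intensities of different probes are not comparable.

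The shared subunit genes RPAC43 and RPAC42 lie on chromosome 1 with 24 protein-coding genes between them in the TAIR10.1 gene order. RPAC43 had normalized intensities of 1056, 1080, 1156 and 1050.2 in ang3, against 972, 968, 1049.7 and 948 in Ler. No ang3 value was below a Ler value, although replicate 4 of ang3 and replicate 3 of Ler nearly met. Its ratios were 0.12, 0.16, 0.14 and 0.15, the narrowest range of the 6 genes at 0.039, with a mean of 0.14 (SE 0.033, SD 0.016, n = 4; adjusted p = 0.0376). The SE exceeds the SD here because the fit draws the variance of each gene towards that of all features. NRPA2 and RPAC43 were the 2 genes of 6 whose ang3 and Ler intensities did not overlap, and 13.2% of all features were higher in ang3 without overlap.

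RPAC42 had normalized intensities of 580, 598, 641 and 493 in ang3, against 550, 466, 503 and 434 in Ler. The groups overlapped, with both genotypes low on replicate 4, and ang3 was above Ler within each array. Its ratios were 0.08, 0.36, 0.35 and 0.18, with a mean of 0.24 (SE 0.061, SD 0.14, n = 4; adjusted p = 0.0443). RPAC42 minus RPAC43 was above 0 on 3 of 4 arrays, with a mean of 0.10 (SD 0.13), so that the ratios of the 2 forms differed by less than the spread between arrays. Genes of similar sequence can share hybridisation signal, and the part of this in the 2 values was not tested. With the processed signals of the scanner software in place of the background correction and loess used here, neither form was called (RPAC43 0.11, adjusted p = 0.114; RPAC42 0.25, adjusted p = 0.0873).

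**Figure D3:**
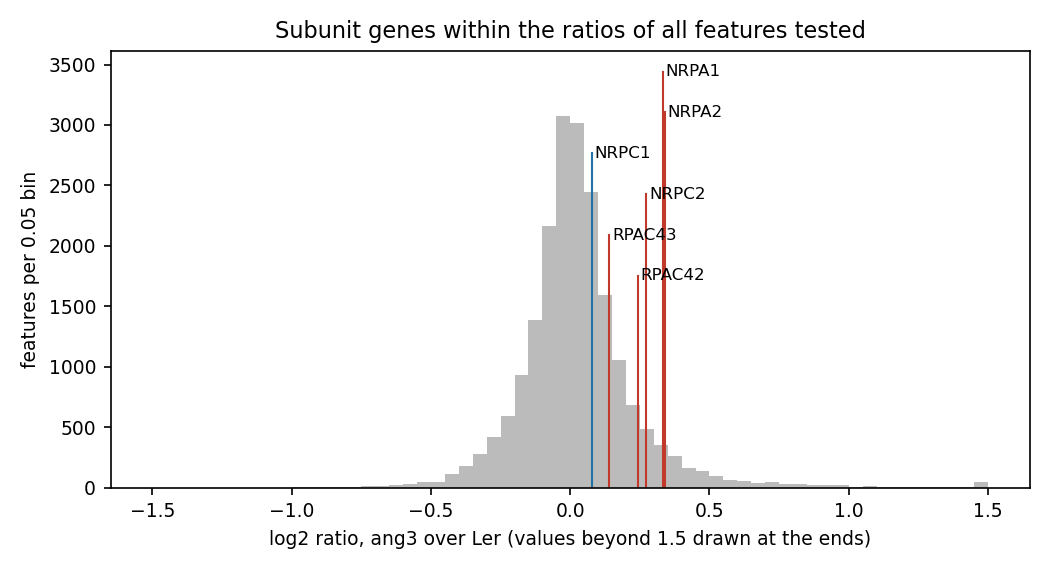
Number of features (vertical axis) by log2 ratio of ang3 over Ler, in bins of 0.05, with the 6 subunit genes marked (red lines, called higher; blue line, not passed; line heights carry no value). The 6 genes lie between 0.08 and 0.34, in the upper part of a distribution whose median is 0.01.

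By array, the median ratio of the 6 genes was 0.10 on replicate 1, 0.36 on replicate 2, 0.29 on replicate 3 and 0.24 on replicate 4. All 6 had their lowest ratio on replicate 1, as did 53.1% of all features called higher. The spread of all ratios was also the smallest on that array, with an SD of 0.198 against 0.285 to 0.335 on the others. Ranked among all features of the same array, the median gene of the 6 stood above 72.2% on replicate 1, 91.2% on replicate 2, 89.3% on replicate 3 and 87.4% on replicate 4. RPAC43 kept nearly the same rank on every array, between 75.5% and 77.0%, whereas NRPC1 ranged from 17.1% to 85.6%. Ratios above 0 on 4 of 4 arrays were found for 5 of the 6 genes, beside 25.0% of all features.

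All 6 genes had a higher mean ratio with ang3 in Cy3 than in Cy5, as did 66.5% of the features called higher and 47.8% of all features. The dye term of the fit had an unadjusted p under 0.05 for NRPA1 and NRPC1 (adjusted p = 0.263 and 0.309 with limma). That was 2 of 6 genes, beside 15.0% of all features. With ang3 in Cy5 on the same arrays throughout, dye and pair of arrays cannot be told apart. Without a dye term, the same 5 genes were called, with adjusted p between 0.0143 for NRPC2 and 0.0468 for RPAC43.

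In the authors' deposited table of each array, all log2 ratios of the subunit genes, turned to ang3 over Ler, were between -0.19 and 0.54. The series text asks for an absolute log2 ratio above 1 and a p under 0.05, which no gene reached on any array. Of 24 deposited p-values 3 were under 0.05. They belonged to NRPA1 on replicates 2 and 4 (0.00992 and 0.0103, with ratios of 0.54 on both) and to NRPA2 on replicate 3 (0.0137, with a ratio of 0.52). All 3 were higher in ang3. On replicates 1 to 4, 5.57%, 8.36%, 8.69% and 6.57% of all features were higher in ang3 at a deposited p under 0.05.

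The polymerase genes outside the 6 were read from lists by locus. Of 14 further loci listed for Pol I and Pol III, 13 were tested, 7 rose, none fell and 6 did not pass (9 higher and 0 lower at an unadjusted p under 0.05 with limma). Their median ratio was 0.20. The gene table used gives a name to only 1 of the 14, RPC14, of the small assembly subunit that pairs with the RPAC43 and RPAC42 proteins. RPC14 had ratios of 0.11, 0.25, 0.37 and 0.08 and did not pass (mean 0.20, SE 0.059, SD 0.13; adjusted p = 0.0641). The largest ratios in the list were those of AT3G25940 and AT1G75670, which rose by 0.40 and 0.37 (adjusted p = 0.0115 and 0.00838). AT5G23710 rose by 0.20 (adjusted p = 0.0284) but was not called whichever array was left out (adjusted p = 0.0793 to 0.113). These 3 loci carry no name in the table.

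Of 7 tested genes listed for subunits shared between nuclear polymerases, 2 rose, none fell and 5 did not pass. None was lower at an unadjusted p under 0.05 with limma. NRPB8A rose by 0.23 (SE 0.039, adjusted p = 0.0170) and NRPB5 by 0.21 (SE 0.048, adjusted p = 0.0347). NRPB5 was not called with the processed signals (0.24, adjusted p = 0.0528). Neither NRPB8A nor NRPB5 was called without replicate 2, 3 or 4 (adjusted p = 0.0601 to 0.159). NRPB6A had a ratio of 0.12 (adjusted p = 0.0935). All 7 ratios were above 0, with a median of 0.12. Another 2 listed loci were too dim to be tested.

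Of 8 tested genes of Pol II, which makes messenger RNA, NRPB2 rose by 0.14 (SE 0.036; adjusted p = 0.0489), none fell and 7 did not pass (1 lower at an unadjusted p under 0.05 with limma, NRPB9A at -0.13). NRPB9A was called lower with the processed signals (-0.53, adjusted p = 0.0185). NRPB2 encodes the second-largest Pol II subunit. It was not called with the processed signals (0.13, adjusted p = 0.0888), without a dye term (adjusted p = 0.0873) or whichever array was left out (adjusted p = 0.113 to 0.248). The largest, NRPB1, had a ratio of 0.03 (adjusted p = 0.583). NRPB3, of the Pol II assembly subunit, had a ratio of -0.12 (adjusted p = 0.186). The Pol II median was 0.03. Set against the catalytic pair of Pol II within each array, NRPA1 minus NRPB1 averaged 0.30 (SD 0.21) and NRPA2 minus NRPB2 averaged 0.20 (SD 0.091), both above 0 on 4 of 4 arrays. NRPC2 minus NRPB2 averaged 0.14 (SD 0.065), above 0 on 4 of 4. NRPC1 minus NRPB1 averaged 0.05 (SD 0.14) and was above 0 on 2 of 4. These differences were not tested.

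None of 6 tested genes of Pol IV and Pol V, the polymerases of RNA-directed DNA methylation, passed with limma (0 at an unadjusted p under 0.05). NRPD1A, of the largest Pol IV subunit, had a ratio of 0.09 (adjusted p = 0.125), NRPE5 one of -0.11 (adjusted p = 0.193) and NRPD2A, of the second subunit that both share, one of -0.03 (adjusted p = 0.502). The median was 0.001.

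Of 9 tested genes of organelle polymerases and their sigma factors, 1 rose, 2 fell and 6 did not pass. MGP3, of a phage-type polymerase of mitochondria, rose by 0.21 (SE 0.037; adjusted p = 0.0189) and was not called with the processed signals (0.20, adjusted p = 0.0513). SIG2, a sigma factor of the plastid polymerase, fell by 0.28 (SE 0.047; adjusted p = 0.0167), and SCA3, of a phage-type polymerase of the plastid, fell by 0.23 (SE 0.042; adjusted p = 0.0214). When loess was replaced by centring on the array median, SIG2 and SCA3 were at -0.08 and -0.06 and were not called. The median of the list was then 0.06 instead of -0.11. SCA3 was not called whichever array was left out (adjusted p = 0.0677 to 0.0815). SIG2 and MGP3 were not called without replicate 2, 3 or 4 (adjusted p = 0.0525 to 0.114).

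Of 9 loci listed for initiation and control of Pol I and Pol III, 1 rose, 1 fell and 7 did not pass, with a median of 0.06. AT5G13240, which has no name in the table, fell by 0.34 (SE 0.038, SD 0.11, n = 4; adjusted p = 0.00937), with -0.21, -0.40, -0.31 and -0.46 on replicates 1 to 4. All 4 arrays were below 0, but it was not called with median centring (-0.15, adjusted p = 0.122). AT1G30590, also without a name, rose by 0.18 (adjusted p = 0.0486). It was not called with the processed signals (0.18, adjusted p = 0.103), without a dye term (adjusted p = 0.108) or whichever array was left out (adjusted p = 0.0663 to 0.228). TFIIIA, a factor of the genes of the smallest ribosomal RNA, had a ratio of 0.11 (adjusted p = 0.0929) and TBP1, of the TATA-binding protein that all nuclear polymerases use, one of 0.16 (adjusted p = 0.0705).

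Over these 6 lists together, 12 of 52 tested genes were called higher and 3 lower, beside 15.0% and 11.2% of all features. The number called higher was 5 with the processed signals, 30 with median centring and 7 without a dye term, and 6, 2, 0 and 3 without replicates 1, 2, 3 and 4. The number called lower was 2, 1, 0 and 1 in those last 4 fits. The share of all features called higher was 10.5% with the processed signals, 34.5% with median centring and 11.5% without a dye term. It was 8.37%, 5.77%, 1.86% and 8.11% without replicates 1, 2, 3 and 4. At an unadjusted p under 0.05 with limma, 10 were higher and 3 lower without replicate 3, beside 15.3% and 10.9% of all features.

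**Figure D4:**
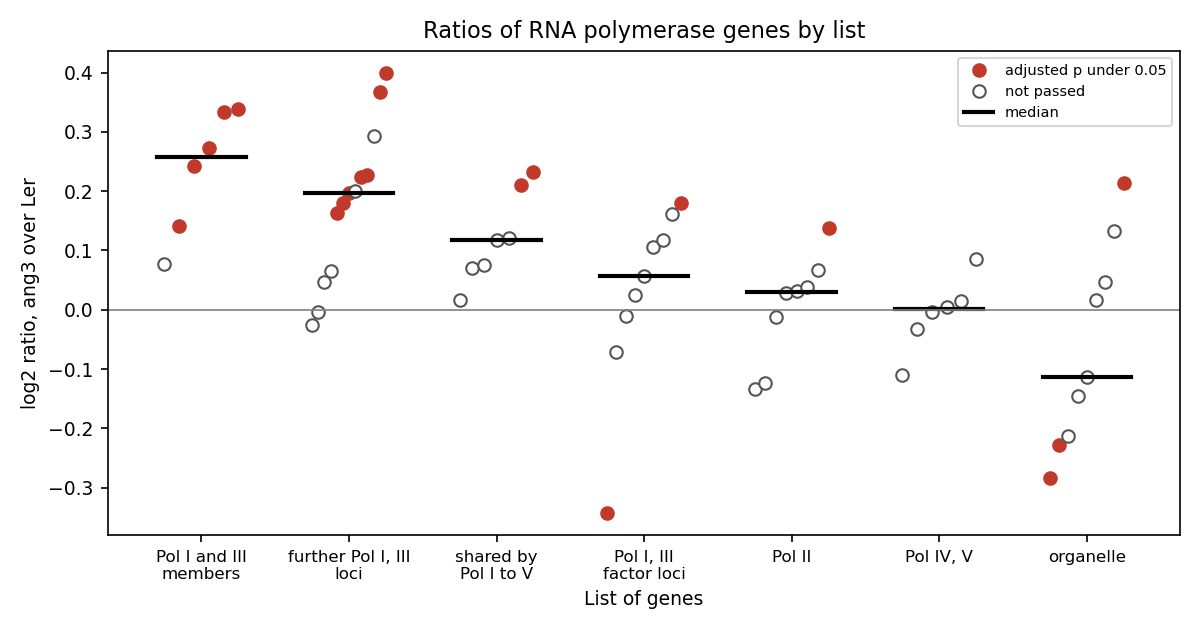
Log2 ratio of ang3 over Ler for each tested gene of the polymerase lists, filled where called and open where not passed, with the median of each list as a bar. The 6 subunit genes have a median of 0.26, the 13 further Pol I and Pol III loci 0.20, the Pol II genes 0.03 and the organelle genes -0.11.

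The scaling changed the size of the ratios but not the order of the 6 genes. The median of all features was 0.14 with median centring and 0.01 with loess. With median centring all 6 subunit genes were called higher, including NRPC1 at 0.21 (adjusted p = 0.0406), with 34.5% of all features called higher. With the processed signals the median of all features was -0.02, and NRPA1 (0.34), NRPA2 (0.35) and NRPC2 (0.27) were called, with 10.5% of all features called higher. The median of the 6 genes stood above that of all features by 0.25 with loess, 0.28 with median centring and 0.28 with the processed signals. NRPC1 was at 0.04 with the processed signals, the lowest of the 6 under each of these scalings.

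**Figure D5:**
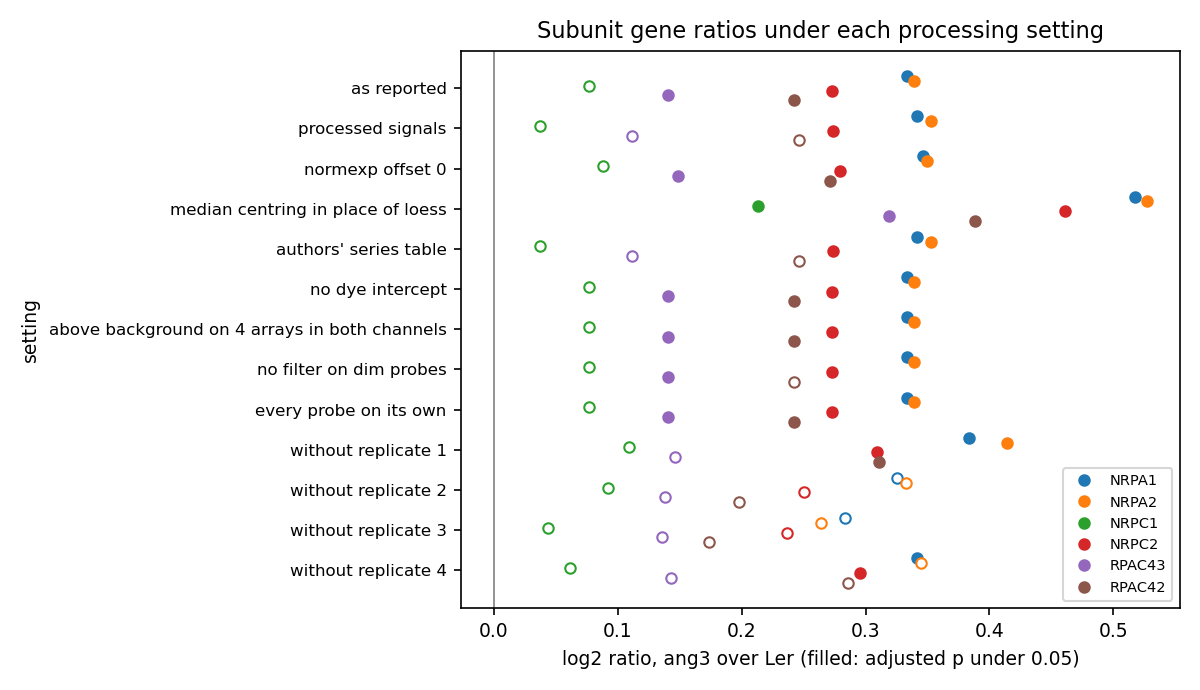
Log2 ratio of ang3 over Ler for each subunit gene (horizontal axis) under each processing setting (vertical axis), filled where the adjusted p was under 0.05. All ratios are above 0, and no gene is called without replicate 2 or without replicate 3.

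Genes with the most similar ratios over the 4 arrays, by Euclidean distance among 18439 loci, were found for each called gene. For NRPA1 they were ATX1 (locus AT1G66240) and MPK11 (distances 0.061 and 0.076, beside a median of 0.78 over all loci). For NRPA2 they were AT5G38200 and ACA11 (0.040 and 0.061, median 0.74). For NRPC2 they were AT2G22660 and AT1G20430 (0.029 and 0.032; median 0.60). For RPAC43 they were bHLH104 and LACS3 (0.018 and 0.020; median 0.38), and for RPAC42 BBC1 and PRMT1A (0.038 and 0.045; median 0.58). All had a mean ratio above 0, between 0.14 and 0.34. A match over 4 arrays is given as a description.

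The genotype and tissue were checked on the same arrays. RPL5B had a ratio of -0.04 (SD 0.22, n = 4; adjusted p = 0.704), which gives no check of the genotype labels. RPL5A, its paralog, rose by 0.26 (SD 0.23, adjusted p = 0.0182). RPL5A ratios were -0.01, 0.51, 0.15 and 0.39 on replicates 1 to 4, higher where ang3 carried Cy3. NRPC2 and NRPC1 lie on chromosome 5 with RPL5B, 609 and 2215 protein-coding genes away in the TAIR10.1 order, and the other 4 genes lie on other chromosomes. Of 6 shoot meristem markers 4 were above background, and WUS and CLV3 were not above it on any array in either genotype. STM, KNAT1 and KNAT6, homeobox genes of the meristem, rose by 0.36, 0.32 and 0.19, while CLV1 was at -0.18 and did not pass (adjusted p = 0.0578). STM, KNAT1 and KNAT6 were not called without replicate 3 (adjusted p = 0.0557, 0.0705 and 0.144). KNAT6 was also lost without replicate 1 or 2 (adjusted p = 0.0957 and 0.0898). Summed normalized intensity over the 6 meristem probes ranged from 6909 to 7156 in ang3 and from 7163 to 7653 in Ler. CLV1 made up 72.0% of that sum in ang3 and 77.7% in Ler, and WUS and CLV3 add background signal to it, so the sum mostly follows CLV1. All 5 leaf markers were above background, and 3 of them fell, RBCS1A by 0.17, LHCB1.1 by 0.39 and LHCB1.3 by 0.44. RBCS1B, at 0.10, and RCA, at -0.01, did not pass (adjusted p = 0.450 and 0.878). RBCS1A was not called with the processed signals (adjusted p = 0.133) or with median centring (adjusted p = 0.704). It was also lost whichever array was left out (adjusted p = 0.0679 to 0.198). LHCB1.1 and LHCB1.3 were not called without a dye term (adjusted p = 0.0878 and 0.0524). LHCB1.1 ratios were -0.07, -0.81, -0.08 and -0.59 on replicates 1 to 4 (SD 0.37, n = 4). Those of LHCB1.3 were -0.79, -0.24, -0.67 and -0.07 (SD 0.34, n = 4). The 2 genes were thus lowest on opposite pairs of arrays, LHCB1.1 with ang3 in Cy3 and LHCB1.3 with ang3 in Cy5. The leaf marker sum ranged from 247970 to 287018 in ang3 and from 272615 to 307310 in Ler. Of 12 mitosis genes 3 rose, CYCB1;3 by 0.41, CYCB1;1 by 0.39 and CDC20.2 by 0.22, HIK fell by 0.15 and 8 did not pass, with a median of 0.03. HIK was at 0.04 with median centring, and neither HIK (adjusted p = 0.0768) nor CDC20.2 (adjusted p = 0.0592) was called with the processed signals. Of 7 root markers 3 were above background on at least 3 arrays in both genotypes (WOX5, SCR and GL2). PLT1 and PLT2 passed it on no array. EXPA7 and COBL9 were above background on 3 arrays in ang3 but on 1 and 2 in Ler. Their ratios of 0.09 and 0.07 did not pass the test (adjusted p = 0.111 and 0.554). GL2 fell by 0.49. The sum of the 7 root probes ranged from 3452 to 4058 in ang3 and from 3472 to 3773 in Ler. SCR made up 69.7% of that sum in ang3 and 65.8% in Ler, so the sum mostly follows SCR. Whether the WOX5, SCR, GL2, EXPA7 and COBL9 signals came from root cells was not tested, so none is read as a sign of root tissue. Of 6 flower and seed markers 2 were above background on at least 3 arrays in both genotypes (AP3 and PI), and SESA1 on none. The sum ranged from 738 to 845 in ang3 and from 837 to 944 in Ler. PI fell by 0.25 but was not called without a dye term (adjusted p = 0.0510). It was also lost without replicate 2, 3 or 4 (adjusted p = 0.0969 to 0.117). The PI probe was faint, at 19.5% of the sum in ang3 and 21.2% in Ler. AG, CRU3, CRA1 and SESA1, too dim to be tested, made up 13.3% to 16.3% each. The part of meristem and leaf cells in the polymerase ratios was not tested.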

How the data were processed

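Each of the 4 arrays held ang3 and Ler RNA in opposite dyes. Agilent Feature Extraction 10.1.1.1 read the scans, per the file headers and the submitters' processing notes. The median spot and background intensity values were used as deposited. Its processed intensities, background-subtracted and dye-normalized per the file headers, served as an alternative. The deposited log10 ratio is red over green, and the deposited p-value is that of the authors' error model on 1 array. The authors' deposited series table gives 32149 probes as log2 ratios of those processed intensities, already ang3 over Ler (r = 1 with the scanner values, not centred, column medians from -0.097 to 0.026).

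Intensities were corrected with normexp (offset 50) and ratios normalized by loess in limma 3.58.1 (R 4.3.3), with figures by matplotlib 3.10.9. Control spots had weight 0, and 9, 1, 6 and 2 outlier spots were left out on replicates 1 to 4. Saturation was found on no spot. Tested probes were well above background in 1 genotype on 3 or more of the 4 arrays. The brightest probe stood for a locus. Intensities in the text are channel values after loess and Aquantile. Between 19224 and 21332 probes per channel were above background, and signals of the 6 genes were 4.97 to 49.3 times local background.

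The limma model (lmFit, eBayes) had genotype and dye terms, with 2 residual and 3.03 prior degrees of freedom. Benjamini-Hochberg adjustment ran over 20155 features. SE and 95% intervals are those of the fit, whose error leaves out the difference between the 2 dye orders. SD is the spread of the 4 ratios. For NRPA1 the SE was 0.046 with the dye term and 0.082 without it. The fit was tested on simulated data. The 6 genes and all lists were chosen with earlier results of these data known, so counts and medians are descriptions. Named genes were the 6, RPL5B, RPL5A, the 3 with the smallest p of each polymerase, factor and mitosis list plus calls against the majority, tissue markers, NRPB1 and RPC14 and TFIIIA (the last 3 outside the rule, chosen after their values were seen), and the 2 nearest patterns of each called gene. Alternatives were other background corrections, scalings and filters, the authors' series table, every probe on its own, no dye term and leaving out each array. Coordinates are left out, and positions are given only as gene order in TAIR10.1.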

Additional observations from a re-analysis of the deposited data

Results flagged for a closer look

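Over 37 sets of 4 array values examined, 3 had 1 array far from the others, by the ratio of the gap to the range. Chance gives such a gap in about 1 of 20 sets. None of the 6 Pol I and Pol III subunit genes was among them. The TBP1 ratio was 0.32 on replicate 2, against 0.09 to 0.12 on the others (gap over range 0.880). The NRPB3 ratio was -0.36 on replicate 4, against -0.05 to -0.04 on the others (0.959). The NRPB6A ratio was -0.02 on replicate 4, against 0.15 to 0.18 on the others (0.830).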

How the results depend on the processing

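All 6 subunit genes had ratios above 0 under all 12 alternatives, and 52 of 72 values kept their side of the threshold. These alternatives are not all separate checks. Settings that changed only the dye term, the filter or the choice of probes left the ratio of each gene as in the main fit. The authors' series table repeats the processed signals. With the processed signals and with the authors' series table, RPAC43 (0.11 in both; adjusted p = 0.114 and 0.113) and RPAC42 (0.25 in both; adjusted p = 0.0873 and 0.0874) were not called, which left 3 genes higher. RPAC42 was not called with no filter on dim probes (0.24; adjusted p = 0.0639), where more probes were tested. NRPC1 was called with median centring (0.21). Leaving out 1 array gave 0.28 to 0.38 for NRPA1, 0.26 to 0.41 for NRPA2, 0.04 to 0.11 for NRPC1, 0.24 to 0.31 for NRPC2, 0.14 to 0.15 for RPAC43 and 0.17 to 0.31 for RPAC42, with 0 to 4 of the 6 called. NRPA1, NRPA2 and NRPC2 were each lost without replicates 2 and 3 (adjusted p = 0.0517 to 0.0858), and NRPA2 also without replicate 4 (0.0616). RPAC43 was lost whichever array was left out (adjusted p = 0.0960 to 0.193), and RPAC42 without replicates 2, 3 and 4 (0.0751 to 0.180). These fits have fewer samples.

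Of the 52 other polymerase genes, 5 were higher with the processed signals and with the series table, 30 with median centring, 7 without a dye term and 0 to 6 without 1 array, against 12. The count of lower genes was 0 with median centring and 0 to 2 without 1 array, against 3. Over all features 6947 were higher and 425 lower with median centring (94.2% higher), 2124 and 2417 with the processed signals (46.8% higher), and 374 to 1686 higher and 162 to 1217 lower without 1 array, against 3018 and 2265 (57.1% higher). The cause of these shifts was not tested. The ratio of each array already pairs ang3 with Ler, and no further block was fitted. NRPC1 and RPAC42 had the faintest probes of the 6 against background, and an effect of faintness on their ratios was not tested.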
